A study of Mus musculus with 12 samples.

Results

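Mucins are the large O-glycosylated proteins of mucus and of the epithelial surface, and 10 of them were taken by name: the membrane mucins *Muc1*, *Muc3*, *Muc4*, *Muc13*, *Muc16* and *Muc20*, and the gel-forming mucins *Muc2*, *Muc5ac*, *Muc5b* and *Muc6*. The deposited table of 15687 genes held 9 of the 10, which are 5 of the 6 membrane mucins and all 4 gel-forming mucins, and *Muc16* was not analysed here. Each was compared between tumors with and without knockdown of *Filip1l*, and with the other mucins inside the same tumor. The tumors grew from mTC11, a mouse lung cancer line, after subcutaneous injection in Matrigel into 8-week-old male C57BL6/J mice, and were collected on day 24. The 6 CTL tumors came from cells with the shControl construct, and the 6 KD tumors from cells with a short hairpin RNA against *Filip1l*. The study's methods describe lentiviral transduction, puromycin selection and mixed clones, so both groups carry a construct in the same line. The labels do not say which of the *Filip1l* target sequences the KD tumors carried, nor whether they came from 1 selected population or more, so the p-values below measure only the spread between tumors.

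Membrane mucins are anchored by a transmembrane segment and carry a long, heavily glycosylated extracellular domain that shields the apical surface, and several of them signal through their cytoplasmic tails. Gel-forming mucins are secreted, link through disulfide bonds into polymers and form the mucus layer, with *Muc5ac* and *Muc5b* as the main airway mucins, *Muc2* as the intestinal one and *Muc6* as a product of deep gastric glands. Mucin precursors are folded with the help of disulfide isomerases such as AGR2. The O-glycans start with N-acetylgalactosamine transferases in the Golgi, and the polymers are packed before secretion.

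Read numbers were scaled by a size factor for each tumor. These normalized counts compare 1 gene between tumors, not different genes. The tumors held 17834745 to 32419578 reads on listed genes, the lowest in CTL replicate 5, and 3 reads, taken as the detection floor, equalled 2.59 to 4.48 normalized counts. *Filip1l* itself was lower in the KD tumors by 0.26 on the log2 scale (limma adjusted p = 0.00998), and its ranges overlapped. The label calls the cells lung cancer cells, and of 10 lung epithelial markers 7 were in the table. In the CTL tumors *Sftpd* had 1737 ± 712 normalized counts (SD, n = 6), *Nkx2-1* had 17.2 ± 14.3, and *Sftpc* was at or below the floor in 5 of the 6. *Foxj1*, *Hopx*, *Sftpb* and *Ager* had CTL means of 107, 86.3, 29.7 and 22.9 normalized counts. Of 13 intestinal and gastric genes 11 were in the table, without *Cdx1* and *Reg4*. In the same CTL tumors the gut regulators *Hnf4a* and *Cdx2* had 8054 ± 482 and 259 ± 48.0 normalized counts. CTL means were 9402 for *Lgals4*, 8079 for *Ctse*, 4466 for *Cdh17*, 2887 for *Tff2* and 1336 for *Vil1*. They were 207 for *Tff1*, 37.9 for *Gkn2* and 33.1 for *Gkn1*. Such levels of different genes do not rank lung against gut identity. RNA came from whole tumors, in which fewer cells of a type and less RNA per cell cannot be told apart.

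The sequences before the starts of the membrane mucin genes are shown because these genes divide into ones that rose and 1, *Muc1*, whose normalized counts did not pass the test between the groups. Each line gives the 250 bases upstream of the RefSeq start on GRCm38.p6, read 5′ to 3′ on the gene's strand, with motif matches in capitals. The windows are chr16:33793787-33794036 (+) for *Muc13*, chr5:137166047-137166296 (-) for *Muc3*, chr16:32735636-32735885 (+) for *Muc4*, chr16:32797436-32797685 (-) for *Muc20* and chr3:89228806-89229055 (+) for *Muc1*.
Muc13: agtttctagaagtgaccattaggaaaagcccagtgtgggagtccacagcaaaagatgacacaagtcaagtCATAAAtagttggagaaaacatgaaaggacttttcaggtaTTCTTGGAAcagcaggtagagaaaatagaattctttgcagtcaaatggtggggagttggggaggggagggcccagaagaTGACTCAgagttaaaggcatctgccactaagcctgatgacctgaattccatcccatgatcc
Muc3: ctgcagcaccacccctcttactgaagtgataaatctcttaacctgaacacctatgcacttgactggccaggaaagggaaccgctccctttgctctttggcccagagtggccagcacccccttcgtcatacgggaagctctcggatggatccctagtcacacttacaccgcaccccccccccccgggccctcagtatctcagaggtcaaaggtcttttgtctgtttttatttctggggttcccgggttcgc
Muc4: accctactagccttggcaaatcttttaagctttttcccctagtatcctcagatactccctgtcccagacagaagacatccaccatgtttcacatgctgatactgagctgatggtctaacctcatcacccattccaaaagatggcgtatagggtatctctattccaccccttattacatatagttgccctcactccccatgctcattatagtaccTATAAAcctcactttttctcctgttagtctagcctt
Muc20: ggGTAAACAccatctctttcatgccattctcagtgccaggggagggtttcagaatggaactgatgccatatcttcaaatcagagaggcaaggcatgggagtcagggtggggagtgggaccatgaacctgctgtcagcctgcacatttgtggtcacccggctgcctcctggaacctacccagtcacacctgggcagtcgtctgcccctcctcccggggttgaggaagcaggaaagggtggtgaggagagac
Muc1: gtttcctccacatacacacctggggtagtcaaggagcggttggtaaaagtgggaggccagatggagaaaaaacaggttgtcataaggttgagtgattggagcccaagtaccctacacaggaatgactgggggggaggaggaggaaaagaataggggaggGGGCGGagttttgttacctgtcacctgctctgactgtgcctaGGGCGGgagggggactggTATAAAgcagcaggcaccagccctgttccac

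The letters searched on both strands were TTTATG for CDX, CAAAGTCC for HNF4, GTTAATNAT for HNF1, AGATAA for GATA factors, TGTTTAC for FOXA, CTTTGAT for TCF/LEF, GGGCGG for KLF/Sp, TGANTCA for AP-1, TTCNNNGAA for STAT, GGGANTTCC for NF-kB and TATAAA for the TATA box. The *Muc13* window held CDX letters starting at -180, STAT letters at -140 and AP-1 letters at -61, counted from the gene start. A second RefSeq start of *Muc13*, 452 bases downstream, had HNF4 letters at -185 (1.2% of windows) that overlap AP-1 letters at -179, and its window is not printed. A CDX match was held by 10.8% of the 32851 windows of this length in the RefSeq table, a STAT match by 7.02% and an AP-1 match by 6.75%. The *Muc4* window held only a TATA box, at -36 (12.4% of windows), the *Muc20* window only FOXA letters, at -248 (3.17%), and the *Muc3* window none of the 11 motifs. The *Muc1* window held KLF/Sp letters at -91 and -49 (32.7% of windows) and a TATA box at -31. The 4 genes that rose thus had no motif in common in these windows, which says nothing about binding. TCF/LEF letters, held by 3.21% of windows, were in none of the 5. The RefSeq start of *Muc3* lies 16724 bases from the start of the Ensembl gene that was counted, so its window belongs to a longer gene model.

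The membrane mucins *Muc3*, *Muc4*, *Muc13* and *Muc20* rose in the KD tumors while *Muc1* did not differ beyond its spread, and among the gel-forming mucins *Muc2* rose. A gene was called at a limma adjusted p under 0.05 over all 15687 genes and an absolute log2 fold change over 1. By this rule 5 of the 9 mucins were called higher and 0 lower in limma, where 6.2% of all genes were called higher, 3.97% lower and 10.2% in either direction. At an unadjusted p under 0.05, 1 mucin, *Muc6*, was lower, and edgeR and DESeq2 called it. The median log2 fold change was 2.39 over the 9 mucins and 0.01 over all genes. In the same 5 mucins every KD tumor lay above every CTL tumor, which held for 10.6% of all genes. The study had singled out several of these mucins in the same tumors, so the counts are no independent evidence of a direction.

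**Figure D1:**
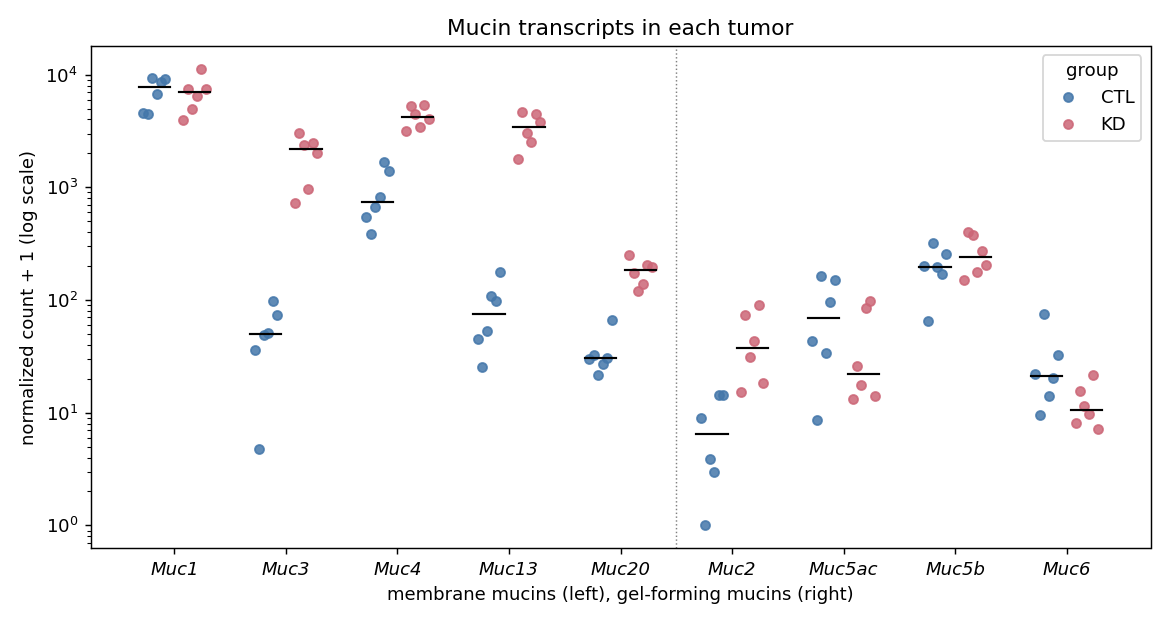
Normalized counts plus 1 (log axis) of the 9 mucins in each of the 6 CTL and 6 KD tumors, with membrane mucins on the left, gel-forming mucins on the right and group medians as black lines. The points of the groups are separate for *Muc3*, *Muc4*, *Muc13*, *Muc20* and *Muc2* and overlap for *Muc1*, *Muc5ac*, *Muc5b* and *Muc6*.

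*Muc1*, the widely expressed epithelial membrane mucin, lies on chromosome 3 from 89229057 to 89233381 (+ strand, GRCm38, as are the positions below). Its CTL values ran from 4497 to 9393 normalized counts with a median of 7734, and its KD values from 3927 to 11270 with a median of 6943. The groups overlapped almost fully, and the lowest and the highest of all 12 values were both in KD tumors. The means were 7176 ± 2243 and 6909 ± 2552 normalized counts (SD, n = 6 each), which is -0.07 on the log2 scale (limma adjusted p = 0.854, exact permutation p = 0.814). The 95% interval of the difference, from inverting the exact permutation test, was -0.73 to 0.61 on the log2 scale. Its sign turned positive when any 1 of CTL replicates 3 and 6 and KD replicates 1 and 3 was left out.

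*Muc13*, a short membrane mucin with EGF-like domains that is abundant in the intestine, lies on chromosome 16 from 33794037 to 33819934. It had 24.6 to 175.5 normalized counts in the CTL tumors, with a median of 74.8, and 1778 to 4671 in the KD tumors, with a median of 3423. The lowest KD tumor was replicate 1, and it still lay above the highest CTL tumor, replicate 6. In limma the log2 fold change was 5.53 with a standard error of 0.40 (adjusted p = 2.08e-07), with an interval of 4.48 to 6.58.

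*Muc3*, another intestinal membrane mucin with EGF-like domains, lies on chromosome 5 from 137134922 to 137149322 (- strand). Its CTL values ran from 3.79 to 97.1 normalized counts (median 48.7) and its KD values from 722 to 3050 (median 2188). In CTL tumors replicate 2 stood lowest, just above the floor, and in KD tumors replicates 1 and 4 stood below 1000 normalized counts while the other 4 were at 2002 or more. In limma the log2 fold change was 5.49 with a standard error of 0.61 (adjusted p = 8.39e-06).

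*Muc4*, a very long membrane mucin known as a partner of ERBB2, lies on chromosome 16 from 32735886 to 32782391 (+ strand). It had 382 to 1663 normalized counts in CTL tumors (median 744) and 3145 to 5395 in KD tumors (median 4243). The highest CTL values were in replicates 5 and 6, and the lowest KD tumor, replicate 1, held more than either. In limma the log2 fold change was 2.39 with a standard error of 0.30 (adjusted p = 2.61e-05, interval 1.61 to 3.17).

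*Muc20*, known to bind the receptor MET, lies on chromosome 16 from 32777419 to 32797435 (- strand). It had 20.4 to 66.1 normalized counts in CTL tumors (median 29.4) and 119 to 249 in KD tumors (median 185). Unlike the other risen mucins its highest KD value was in replicate 1, which had the lowest KD value of *Muc3*, *Muc4*, *Muc13* and *Muc2*. In limma the log2 fold change was 2.44 with a standard error of 0.26 (adjusted p = 5.30e-06).

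The genes of *Muc4* and *Muc20* overlap tail to tail over 4973 bases, from 32777419 to 32782391. They share 627 annotated exon bases, 5.33% of the exon length of *Muc4* and 15.6% of that of *Muc20*. *Muc20* had far fewer reads than *Muc4*. Unique hits per gene were counted, but whether the counting used the strand is not given in the sources used here. It is thus not known whether reads in the shared bases were assigned to a gene or left out. Of the 50-base words of the longest *Muc20* transcript, 13.3% also occur in a *Muc4* transcript, and of those of *Muc13*, 3.53% occur in the overlapping gene *Gm15657*. The other 6 mucins shared no 50-base word with another annotated gene, although repeats inside the gene made up 23.2% of the words of *Muc5ac* and 21.9% of those of *Muc5b*.

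The gel-forming genes stand side by side on chromosome 7, in the order *Muc6* (141633456 to 141655319, - strand), *Muc2* (141690340 to 141754693), *Muc5ac* (141788972 to 141819231) and *Muc5b* (141839070 to 141873084). Within this cluster 1 of 4 genes was called higher and 0 lower (6.2% and 3.97% of all genes), and the members differed in sign. *Muc2* rose, *Muc5b* had a log2 fold change of 0.44, and *Muc5ac* and *Muc6* had log2 fold changes of -0.90 and -1.01 that did not pass the test.

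*Muc2* was near the limit of detection in the CTL tumors, with 0, 1.99, 2.92, 8.00, 13.2 and 13.4 normalized counts, and 3 of the 6 were at or below the floor of 3 reads. The tumor at 0, CTL replicate 2, had a floor of 2.84 normalized counts. The 6 KD tumors held 14.1, 17.5, 30.3, 42.1, 72.9 and 89.9 normalized counts. The groups did not overlap, but the highest CTL and the lowest KD tumor differed by less than 1 normalized count. In limma the log2 fold change was 2.81 with a standard error of 0.66 (adjusted p = 0.00375, exact permutation p = 0.00216, the smallest that this design allows). With a pseudocount of 8 in place of 1 the log2 fold change was 1.73, and the call remained. Since the table holds *Muc2* only through its KD values, its call is no independent evidence of a rise.

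*Muc6* had 8.52 to 73.9 normalized counts in CTL tumors (median 20.2) and 6.11 to 20.75 in KD tumors (median 9.62), a difference of the opposite sign. The groups overlapped, and CTL replicate 3 held more than all other tumors. In limma the log2 fold change was -1.01 with a standard error of 0.46 (adjusted p = 0.0909, exact permutation p = 0.0628). On reads recovered from the normalized values, count models gave a call, at -1.31 with edgeR (adjusted p = 0.0471) and -1.31 with DESeq2 (adjusted p = 0.0330), as did limma without CTL replicate 2 (-1.27, adjusted p = 0.0351).

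Per kilobase of exon, *Muc5b* had the highest level of the gel-forming mucins in all 12 tumors, with 13.4 ± 5.76 normalized counts per kilobase in CTL tumors against 7.57 ± 5.96 for *Muc5ac* (SD, n = 6 each). *Muc5ac* had 7.58 to 162 normalized counts in CTL tumors and 12.1 to 96.8 in KD tumors, where replicates 4 and 5 held 84.2 and 96.8 and the other 4 tumors at most 25.0. *Muc5b* ran from 64.4 to 321 in CTL tumors and from 149 to 397 in KD tumors. In KD tumors the highest *Muc5b* values were in replicates 2 and 3, which had *Muc5ac* at 25.0 and 16.7. In CTL tumors replicates 3 and 6 were the highest for both genes, and replicate 2 the lowest for both. Neither gene passed the test (limma adjusted p = 0.351 and 0.336), and the 95% intervals of the log2 difference, -2.83 to 1.07 and -0.39 to 1.33, are wide enough to hold changes past the threshold in at least 1 direction.

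Scaled to exon length, the mucin transcripts of the CTL tumors were almost all *Muc1*, and in the KD tumors nearly equal parts were *Muc1* and the risen membrane mucins. Levels per kilobase of annotated exon were used here to compare genes inside a tumor, and each mucin was expressed as a share of the summed level of the 9. The shares are approximate, since only unique hits were counted and words repeated inside a gene ran from 0% for *Muc3* to 23.2% for *Muc5ac*. The counted *Muc3* model has only 1943 exon bases. The effect of repeats on the shares was not tested. *Muc1* made up 95.1% ± 1.47 of the sum in CTL tumors (SD, n = 6, range 93.6% to 97.2%) and 53.7% ± 7.17 in KD tumors (44.1% to 62.2%). Together *Muc3*, *Muc4*, *Muc13* and *Muc20* made up 4.18% ± 1.43 in CTL tumors and 45.8% ± 7.12 in KD tumors. The 4 gel-forming mucins together stayed a small share of transcripts, at 0.741% ± 0.296 and 0.526% ± 0.130.

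The summed level was 3223 ± 1024 normalized counts per kilobase in CTL tumors (1973 to 4160) and 5491 ± 1824 in KD tumors (2974 to 8103), with overlapping ranges. *Muc13* took 0.813% ± 0.394 of the sum in CTL tumors and 20.3% ± 1.67 in KD tumors. *Muc3* took 0.761% ± 0.390 and 17.6% ± 5.81. *Muc4*, whose transcript is several times longer, took 2.33% ± 0.805 and 6.94% ± 1.31. Shares and sums over these genes are descriptions, and no test was run on them.

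**Figure D2:**
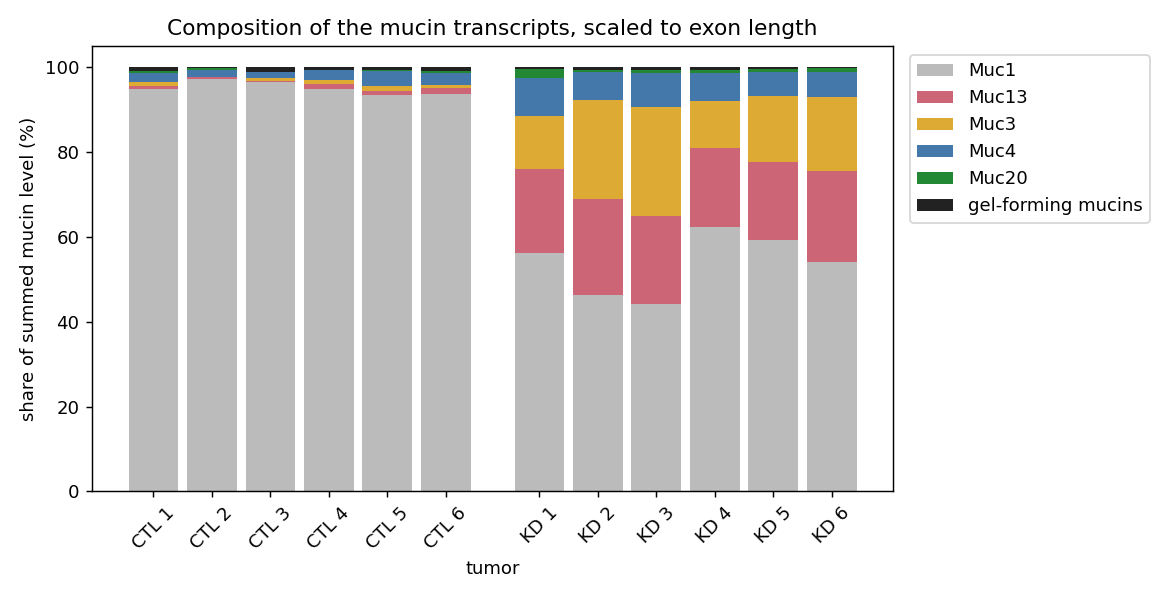
Share (%) of each mucin in the summed level per kilobase of exon of the 9 mucins, as 1 stacked bar per tumor. *Muc1* fills 93.6% to 97.2% of the CTL bars and 44.1% to 62.2% of the KD bars, and most of the remainder in KD tumors is *Muc13* and *Muc3*.

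The order of the mucins by level per kilobase differed between the groups at several places. *Muc1* came first in all 12 tumors. *Muc4* was second in all 6 CTL tumors and the fourth in all 6 KD tumors, behind *Muc1*, *Muc13* and *Muc3*. *Muc2* was last of the 9 in every CTL tumor, and *Muc6* in every KD tumor. *Muc3* and *Muc13* were at 26.2 ± 16.4 and 27.5 ± 18.1 normalized counts per kilobase in CTL tumors and at 992 ± 468 and 1116 ± 378 in KD tumors. Both come from the same tumors, where their log2 values had r = 0.83 in CTL and 0.92 in KD tumors. Their difference within a tumor was not tested, and the spread between tumors does not judge it. *Muc13* lay above *Muc3* in 4 of the 6 KD tumors.

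Within a tumor the mucins did not rise by the same factor, which the ratio of a pair shows without reference to any other gene. Of 5 pairs compared, 2 differed between groups. The log2 ratio of *Muc13* to *Muc4* was -3.52 ± 0.47 in CTL tumors and -0.39 ± 0.28 in KD tumors (SD, n = 6 each), and the groups did not overlap. The difference was 3.13 (exact two-sided permutation p = 0.00216, 0.00541 after Benjamini-Hochberg adjustment over the 5 pairs), with a 95% interval of 2.63 to 3.63. The log2 ratio of *Muc1* to *Muc4* fell from 3.10 ± 0.53 to 0.64 ± 0.38, a difference of -2.46 (exact permutation p = 0.00216, adjusted 0.00541, interval -3.04 to -1.89).

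The other 3 pairs did not pass the test. *Muc4* and *Muc20*, the overlapping neighbours, had a log2 ratio of 4.63 ± 0.76 in CTL tumors and 4.58 ± 0.54 in KD tumors, a difference of -0.05 (exact permutation p = 0.903) with an interval of -0.91 to 0.80. *Muc3* and *Muc13*, on different chromosomes, had -0.87 ± 0.92 and -0.91 ± 0.40, a difference of -0.04 (exact permutation p = 0.924) with an interval of -0.92 to 0.92. These intervals allow a shift of the ratio by nearly 1 on the log2 scale either way. For *Muc5ac* over *Muc5b* the log2 ratio was -1.71 ± 0.96 in CTL tumors and -3.05 ± 1.41 in KD tumors. The difference was -1.34 (exact permutation p = 0.0844, adjusted 0.141), and 4 of the 6 KD tumors lay below every CTL tumor. Without 1 tumor the difference ranged from -1.74 without KD replicate 4 (unadjusted exact permutation p = 0.0303) to -1.06 without KD replicate 3 (p = 0.167). Only the fit without KD replicate 4 and that without KD replicate 5 (-1.65, exact permutation p = 0.0476) passed, and the other 10 did not.

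**Figure D3:**
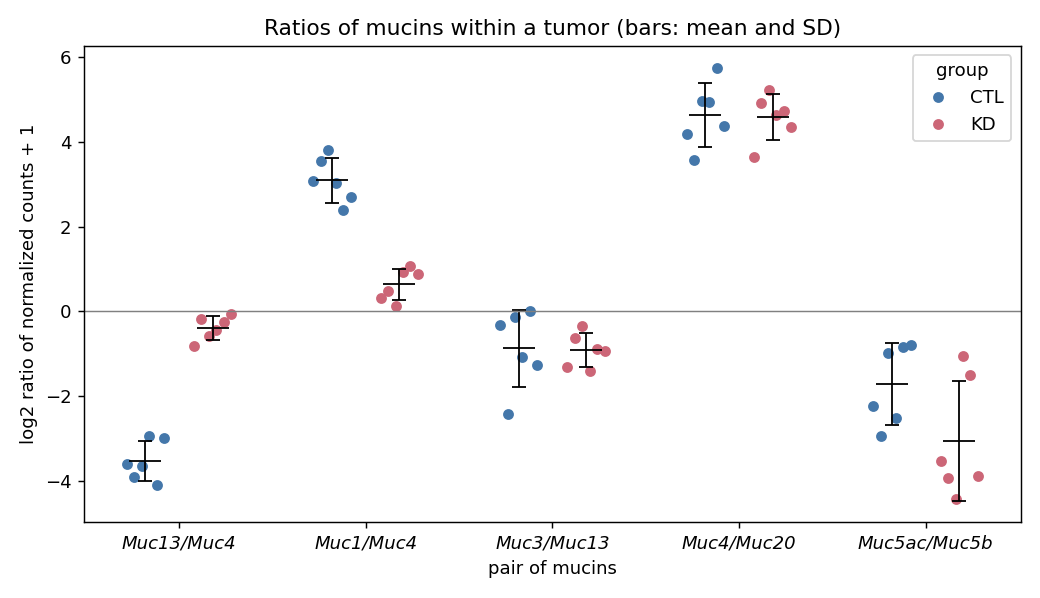
Log2 ratio of the normalized counts plus 1 of 5 pairs of mucins in each CTL and KD tumor, with the mean and SD of each group in black. The groups are separate for *Muc13* over *Muc4* and for *Muc1* over *Muc4*, and overlap for the other 3 pairs.

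Epithelial genes also rose in the KD tumors, so the mucins were read a second time relative to them. Of 8 epithelial genes, 6 were called higher and 0 lower, where 6.2% and 3.97% of all genes were. The 8 had a median log2 fold change of 1.48 and a summed level of 135800 to 176600 normalized counts in CTL tumors and 193000 to 358900 in KD tumors. None of the 8 was at the floor. The list did not move as 1: *Cldn3*, a tight junction protein, had a log2 fold change of 3.76, *Epcam* 1.51, *Krt8* 1.06 and *Krt18* 0.44, whereas *Cdh1* (E-cadherin) had 0.01 (limma adjusted p = 0.950). When the mean log2 value of the 8 was subtracted in each tumor, *Muc13* still rose by 4.00 on the log2 scale and *Muc3* by 3.96 (limma adjusted p = 9.38e-10 and 2.48e-07).

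On that scale *Muc4* had a log2 difference of 0.87 (limma adjusted p = 0.00214) and *Muc20* of 0.92 (adjusted p = 0.00312), below the threshold of 1, so both calls were lost. *Muc2* had 1.28 (limma adjusted p = 0.0487). *Muc1* lay lower, at -1.59 (limma adjusted p = 1.15e-07), as did *Muc6* at -2.53, *Muc5ac* at -2.42 and *Muc5b* at -1.08, which turned its sign. The subtraction shifts every gene by the same 1.52, so 13504 genes pass the same rule on this scale and the order of the mucins is unchanged.

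**Figure D4:**
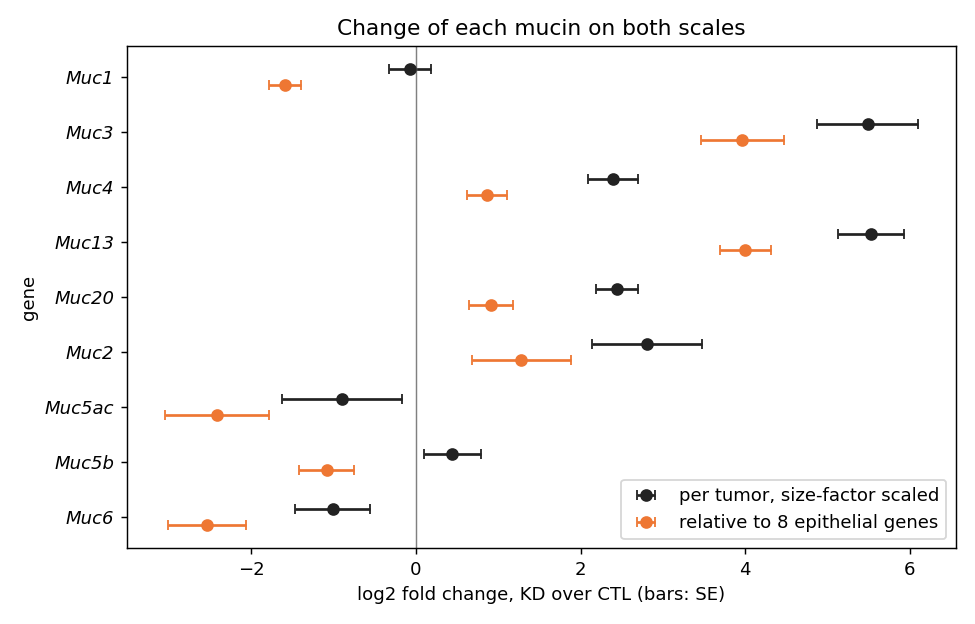
Log2 fold change of each mucin, KD over CTL, with its standard error, from the size-factor scaled values (black) and after subtraction of the mean of 8 epithelial genes in each tumor (orange). *Muc13* and *Muc3* lie at or above 3.96 on both scales, *Muc4* and *Muc20* fall below 1 on the second, and *Muc1* moves from -0.07 to -1.59.

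Markers of several other cell types moved with the groups as well, beside 6.2% of all genes called higher and 3.97% lower. Skeletal muscle genes were called higher for 9 of 11 and lower for 0, with a summed level of 2747 to 14130 normalized counts in CTL tumors and 5720 to 104900 in KD tumors. Neutrophil genes were called higher for 6 of 7, with sums of 312 to 383 and 767 to 1256, and *Ngp* was at or below the floor in 4 CTL tumors. Genes of intestinal and gastric epithelium were called higher for 7 of the 11 in the table and lower for 1, with sums of 29820 to 39010 and 56140 to 115000. The fibroblast, T cell and endothelial lists held 0 called genes of 9, 7 and 7 in limma, which lists this short can hold at the share of all genes. At an adjusted p under 0.05 with smaller changes 3 fibroblast genes were lower and 5 endothelial genes higher. The macrophage list had 1 of 8 called higher and 0 lower, and the skin list 0 of 5 higher and 1 lower. Among the 7 lung epithelial genes found, 1 was called higher and 1 lower. These were *Sftpb* (log2 fold change 2.80, limma adjusted p = 0.0463), whose groups overlapped, and *Foxj1* (-1.85, adjusted p = 9.82e-06). The part of these cell types in the mucin values was not tested.

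Among the intestinal and gastric genes *Cdx2*, an intestinal transcription factor, had a log2 fold change of 2.15, *Vil1* of 2.16 and *Cdh17* of 2.46, and *Tff2*, a gastric trefoil peptide, of -2.72 (limma adjusted p = 1.24e-07, 1.61e-07, 2.31e-07 and 0.000358). *Hnf4a* did not pass the test (0.14, limma adjusted p = 0.151). The gastric genes did not share a direction, since *Gkn1* (3.06), *Gkn2* (3.57) and *Anxa10* (1.14) were called higher, and *Tff1* (-0.43) and *Ctse* (-0.36) did not pass the test. The groups overlapped for *Gkn1* and *Gkn2*. KD replicate 1 had 6.05 and 16.1 normalized counts of them, inside the CTL ranges of 0 to 68.8 and 2.84 to 102.3.

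The variation among tumors of the same group was compared by removing the group means from the log2 values and correlating the residuals over the 12 tumors, as a description. *Muc4* and *Muc13* had a residual r of 0.89, *Muc3* and *Muc4* 0.86, and *Muc3* and *Muc13* 0.85. *Muc20* was least like the others, with residual r between -0.16 and 0.36. The genes most like *Muc3* were *Capn13* (0.97), *Prap1* (0.96) and *Tmem236* (0.95). Those most like *Muc13* were *Muc3a* (0.96), *Phgr1* (0.94) and *Cfhr2* (0.94), and those most like *Muc4* were *Ltf* (0.95), *Muc3a* (0.94) and *Cfhr2* (0.93). Likeness inside the groups and change between them were separate measures, since *Ltf* had a log2 fold change of -0.09 between the groups.

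For *Muc1* the most alike genes were *Tmem184a*, *Cblc* and *Arhgef16*, with residual r from 0.95 to 0.96. *Muc2* was most like *Chdh* (0.92), *Jade1* (0.90) and *Cdkn2aip* (0.89), *Muc5ac* most like *Ephb3*, *5330417C22Rik* and *Calcoco1* (0.90 each), *Muc5b* most like *Ptges3l* (0.93), *Camta2* (0.90) and *Selenop* (0.89), and *Muc6* most like *Scmh1* (0.88), *Ptger4* (0.88) and *Rad51d* (0.87). *Muc20* reached at most 0.82, with *Uri1*, *Pwp1* and *Pter*. With 12 tumors and so many genes the highest values of such a search are high by selection, and the tumors share their depth and cell composition across genes.

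Most chromosomal neighbours of the mucins were not called, but the share called higher was above that of all genes. Of the 30 nearest annotated protein-coding genes, 3 on each side of a mucin or mucin cluster, 27 were in the table. Of these 27, 5 were called higher and 0 lower, where 6.2% and 3.97% of all genes were. On chromosome 16 *Tfrc*, the transferrin receptor, had a log2 fold change of 1.54 on 1 side of the *Muc4* and *Muc20* pair (limma adjusted p = 1.26e-05). *Tnk2*, the nearest gene in the table on that side, had 0.60 (limma adjusted p = 1.17e-05), under the threshold of size but with every KD tumor above every CTL tumor, and *Rubcn* and *Fyttd1* on the other side had -0.09 and -0.07. *Muc13* stood between *Heg1* at -0.48 and *Itgb5* at -0.66, with *Kalrn* called at 1.14. On chromosome 7 no neighbour of the gel-forming cluster was called, and the values ran from -0.70 for *Tspan4* to 0.20 for *Chid1*.

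*Muc3* was different, with 3 called neighbours on 1 side. *Muc3a*, the next annotated mucin, had 29.6 ± 27.6 normalized counts in CTL and 120.5 ± 53.0 in KD tumors (SD, n = 6 each), a rise by 2.63 on the log2 scale (limma adjusted p = 0.0115), and its groups overlapped. *Ache*, which encodes acetylcholinesterase, rose from 30.7 ± 11.4 to 367 ± 118 normalized counts (log2 fold change 3.56, limma adjusted p = 1.12e-06), and *Ufsp1* had a log2 fold change of 1.30. On the other side *Trim56* had -0.62 and *Ap1s1* 0.22, neither past the threshold of 1. The annotated transcripts of *Muc3* and *Muc3a* share no 50-base word. The medians of chromosomes 3, 5, 7 and 16, taken over their genes averaging 50 normalized counts or more, were between -0.01 and 0.03 on the log2 scale, and removing them left the calls of the 9 mucins as they were.

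**Figure D5:**
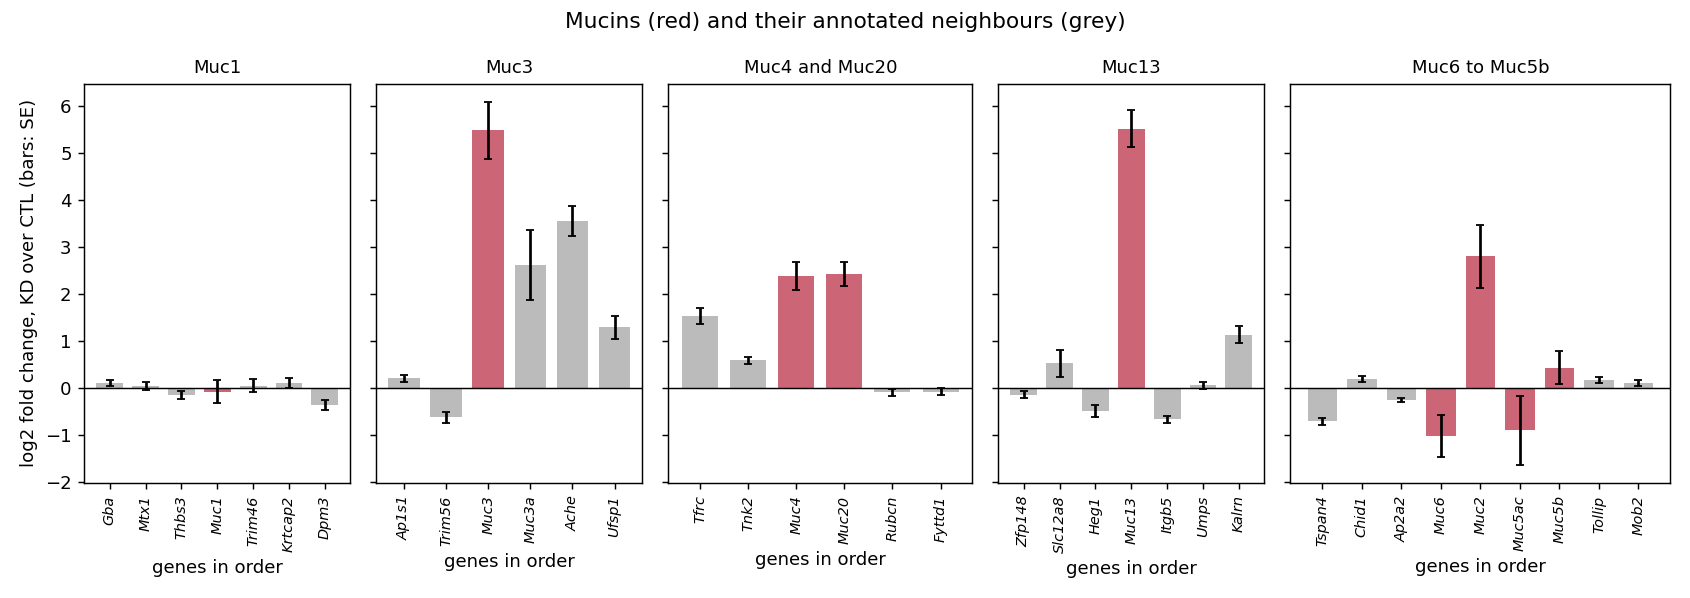
Log2 fold change, KD over CTL, with its standard error, of the mucins (red) and of up to 3 annotated neighbours on each side (grey), in their order on the chromosome. Beside *Muc3* the neighbours *Muc3a*, *Ache* and *Ufsp1* are higher too, whereas the genes next to *Muc13* have values of -0.48 and -0.66.

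The genes that fold, pack and secrete mucins were called higher for 7 of the 22 in the table and lower for 1, beside 6.2% and 3.97% of all genes, with a median log2 fold change of 0.35. The risen genes were *Clca4b* and *Clca1*, of the CLCA family of secreted proteins found in mucus (6.30 and 2.94), *Agr2*, the disulfide isomerase (4.75), *Nlrp6*, which acts in goblet cell secretion (3.17), *Cftr*, the chloride and bicarbonate channel (2.86), *Fcgbp*, a mucus protein (1.74), and *Rab27a*, a GTPase of secretory granules (1.19). *Fcgbp* overlapped between groups, since the CTL tumors reached 4853 normalized counts and the lowest KD tumor had 1725. *Clca4b* was at or below the floor in 1 CTL tumor. The regulators of secretory cells *Spdef* (0.19, limma adjusted p = 0.805), *Xbp1* (0.04), *Creb3l1* (0.11) and *Foxa3* (0.15) did not pass the test, and neither did *Tff3* (1.53, limma adjusted p = 0.130).

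The O-glycosylation enzymes were called higher for 5 of 23 and lower for 2, where 6.2% and 3.97% of all genes were, with a median log2 fold change of 0.20 against 0.01 over all genes. *B4galnt2* and *Fut2*, which add terminal sugars to mucin glycans, rose with the groups apart, *B4galnt2* from 28.7 ± 12.5 to 433 ± 81.5 normalized counts (SD, n = 6 each; log2 fold change 3.96, limma adjusted p = 6.42e-08) and *Fut2* from 251 ± 76.6 to 1786 ± 448 (2.83, limma adjusted p = 3.96e-07). *Galnt5* (1.17), *B3gnt7* (1.08) and *B4galnt3* (1.00) were called with smaller changes. *Galnt5* rested on 2 to 20 reads, and its groups overlapped, at 1.94 to 17.0 normalized counts in CTL and 13.6 to 20.8 in KD tumors. *B4galnt3* overlapped too, with CTL tumors up to 65.7 and KD tumors from 54.3. *Gcnt4*, a core branching enzyme, fell by 1.81 on the log2 scale and *St6galnac2*, a sialyltransferase, fell by 1.86. *C1galt1*, which makes the core 1 structure, had a log2 fold change of 0.32, and *Galnt1*, an initiating transferase, had -0.24, both under the threshold of size.

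Of 19 partners of the membrane mucins 5 were called higher and 0 lower (6.2% and 3.97% of all genes), with a median of 0.12. At an adjusted p under 0.05, whatever the size, 9 of the 19 were higher and 2 lower. The receptors named above had little change: *Erbb2*, the partner of *Muc4*, had a log2 fold change of 0.03 (limma adjusted p = 0.802), and *Met*, the partner of *Muc20*, had 0.12 (adjusted p = 0.139). Other receptors of the list rose under the threshold of size, *Egfr* by 0.52 (limma adjusted p = 0.000931, groups apart) and *Erbb3* by 0.48 (adjusted p = 0.0141). *Ctnnb1* (β-catenin), which binds the tail of *Muc1*, had 0.03 (limma adjusted p = 0.752). *Lgals4* and *Lgals3*, galectins that bind surface glycans, rose by 2.19 and 1.00. *Lgals3* lies on chromosome 14, whose median gene was higher by 0.38 in KD tumors, and with chromosome medians removed it had 0.62 (limma adjusted p = 0.00139) and was not called, which left 4 of the 19. *Bace2*, a membrane protease, rose by 1.53 and the meprin *Mep1a* by 3.67. *Mep1b*, the other meprin subunit, was at or below the floor in 6 of 6 CTL tumors and had 26.4 to 81.4 normalized counts in KD tumors. *Adam17* (-0.07) and *Adam10* (0.03), shedding proteases, did not pass the test.

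Of 11 further mucins and mucin-like genes 6 were in the table. Of these 1, *Mucl3*, was called higher and 0 lower, where 6.2% and 3.97% of all genes were. *Mucl3* rose by 2.78 on the log2 scale (limma adjusted p = 0.00417). Its KD tumors ran from 10.1 normalized counts in replicate 1 to 560 in replicate 2, against at most 19.4 in CTL tumors, so replicate 1 lay inside the CTL range. *Cd164*, a sialomucin, had 10330 ± 369 and 12150 ± 646 normalized counts and a log2 fold change of 0.23 (limma adjusted p = 0.00174). *Emcn*, the endothelial mucin, had 0.70 (adjusted p = 0.000237), and *Muc15* had -0.58 (adjusted p = 0.676) with 3 CTL and 3 KD tumors at or below the floor.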

How the data were processed

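RNA of 12 subcutaneous mTC11 tumors, 6 CTL and 6 KD, was sequenced by the authors from oligo(dT)-enriched libraries. The submitters' processing notes name bcl2fastq 2.20, Trimmomatic 0.36, STAR 2.5.2b, featureCounts of Subread 1.5.2 and DESeq2, with mm10, and unique hits per gene were counted. The deposited values are a normalized signal, reads divided by each tumor's size factor. Each tumor's values were whole multiples of its smallest step in 100% of cases (tolerance 1e-06), so whole reads could be recovered, and count tests on them, chosen after seeing the data, called 1635 genes with edgeR 4.0.16 and 1652 with DESeq2 1.42.0. Without molecular identifiers, the floor of 3 reads covers only counting error.

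The groups were compared on log2(normalized count + 1) with limma 3.58.1 in R 4.3.3 (variance trend, Benjamini-Hochberg adjustment over 15687 genes). A filter at a mean of 5 removed no gene, since the lowest mean in the deposited table was 9.28. Genes called higher with CTL means below this were listed only through their KD values. They include *Muc2* (6.60), *Mep1b* (0.396), *Mep1a* (6.575), *Clca4b* (7.11) and *Galnt5* (7.35). The thresholds, adjusted p under 0.05 and absolute log2 fold change over 1, are those of the study. Single mucins and ratios were also compared with exact two-sided permutation tests over every arrangement of the labels. The steps were tested on simulated data. Positions, exons and symbols (15655 of 15687 identifiers) came from GENCODE vM21 on GRCm38. Promoter windows came from RefSeq on GRCm38.p6, and *Muc5ac* and *Muc5b* had no entry there.

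The mucins and lists were chosen with earlier results of these data known. Named are all mucins, *Filip1l*, the 3 genes most like each mucin among genes with a mean of at least 50, the 3 nearest neighbours on each side where the results turn on them (1 is not reported here), and in the lists the called genes and some others of high level. *Cldn3*, *Vil1* and the other markers named were picked after their values were seen. Replicate numbers did not pair the tumors (correlations of same-numbered tumors after removal of group means from -0.269 to 0.0990). Alternatives were other pseudocounts, filters, scalings, no trend, a replicate block, removal of chromosome medians, subtraction of epithelial genes, other gene lengths and leaving out each tumor. Figures were drawn with matplotlib 3.10.9.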

Additional observations from a re-analysis of the deposited data

Results flagged for a closer look

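*Muc20* in CTL replicate 6, at 66.1 normalized counts, stood apart from the other 5 CTL tumors, since the gap to the next value was 0.763 of the whole range of the group. *Muc6* in CTL replicate 3, at 73.9 normalized counts, stood apart in the same way, with a gap of 0.645 of the range. Of 28 groups looked at, these 2 stood out, and chance alone marks about 1 in 20.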

How the results depend on the processing

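The 5 calls of *Muc2*, *Muc3*, *Muc4*, *Muc13* and *Muc20* remained in each of the 12 fits without 1 tumor and in 11 alternatives that kept all tumors, with log2 fold changes of 1.73 to 3.10 for *Muc2* and at least 2.18 for the other 4. The exception was subtraction of epithelial genes, with 0.87 for *Muc4* and 0.92 for *Muc20*, and -1.08 for *Muc5b*, which reversed. That scale called 13504 genes in all, by its construction. Without 1 tumor, 5 to 6 mucins were called (*Muc6* being the sixth, without CTL replicate 2) and 1513 to 1712 genes. *Muc1* then ranged from -0.23 to 0.08 on the log2 scale, with a positive sign without KD replicate 1 (0.0777), CTL replicate 3 (0.0217), CTL replicate 6 (0.0137) or KD replicate 3 (0.0132).

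The difference in log2 ratio ranged without 1 tumor from -1.74 to -1.06 for *Muc5ac* over *Muc5b*, from -0.26 to 0.18 for *Muc4* over *Muc20* and from -0.35 to 0.13 for *Muc3* over *Muc13*. With a pseudocount of 8 that of *Muc4* over *Muc20* was 0.18. With lengths of the longest transcript the share of *Muc2* was 0.0644% in CTL and 0.248% in KD tumors instead of 0.0277% and 0.106%, and its annotated transcripts are short for this gene. The causes were not tested beyond these constructions. A replicate block, although the numbers do not pair the tumors and no tumor correlated best with its own number, gave the same 5 mucins and 1554 genes in place of 1596. Depth limits *Muc2*, *Muc3*, *Muc6* and *Muc5ac*, whose lowest tumors held 0, 4, 7 and 8 reads. For *Muc3* that tumor was CTL replicate 2, without which its log2 fold change was 4.89.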
